A study of Mus musculus with 131 samples.

Results

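Isg15, Usp18, Ifit1, Ifit2, Ifit3, Rsad2, Oasl1, Irf7 and Irf9 are genes of the type I interferon response. Their rows were taken by gene symbol from the table of RNA-Seq expression values of mouse hepatocytes, where all 9 were found among 24397 listed genes. The values are FPKM, fragments scaled by transcript length and by the mapped fragments of the library, so levels can be set side by side per length within a library. The 9 genes were followed across 18 hepatocyte libraries, and the DNA methylation, chromatin and accessibility records were read inside each gene and over 5000 bp on either side of it.

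The study asked which DNA methylation of the liver is removed after birth, and what depends on that removal. The Tet enzymes oxidise methylated cytosine as a step towards its removal, and the double knockout (DKO) lacked Tet2 and Tet3 in hepatocytes. All mice were C57Bl. DKO mice carried floxed alleles of both genes (Tet2 F/Tet3 F) and received AAV8, an adeno-associated virus that enters liver cells, with the gene for Cre recombinase under the Tbg promoter, which is active in hepatocytes; the tissue itself therefore still held other, undeleted cell types. Injected controls were WT mice given the same kind of virus. Injection was either at 1 day, into the superficial temporal vein, or at 3 weeks, into the jugular vein with a larger dose, and hepatocytes were collected at 15 weeks; age at injection, route and dose cannot be told apart. Expression was available for uninjected WT mice at 1 week (1 library), 3 weeks (3 libraries) and 15 weeks (3 libraries), controls injected at 1 day (3) and at 3 weeks (3), and DKO injected at 1 day (3) and at 3 weeks (2). Hepatocytes had been perfused, separated on a gradient and sorted as CD45-negative cells, a gate that removes leukocytes. DNA methylation came from WT newborn (1 week), adult WT and DKO injected at 1 day (both 15 weeks), and from the injected groups, all at 15 weeks. It also came from uninjected 3 week WT, hepatocytes in which the insulin receptor had been deleted after birth (age not given in the labels used here), hepatocytes of 1 week WT mice kept in culture, WT fat at 25 weeks and WT neutrophils at 36 weeks. The study compared the insulin receptor mice with WT animals of 15 weeks or older. The cultures are labelled hepatocytes, but the study's methods describe them as grown from liver cells of newborn mice that had not been sorted. The chromatin marks were measured at 15 weeks in uninjected WT and DKO injected at 1 day. The ATAC-Seq and HNF6 libraries are labelled liver, with no age in the labels. For ATAC-Seq the study describes adult hepatocytes at 15 weeks, from WT and from the 1 day DKO. For HNF6 it states no age.

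Type I interferons bind a receptor whose kinases activate transcription factors in the cytoplasm. These join IRF9 into a complex, ISGF3, that binds the interferon-stimulated response element in the promoters of its target genes. Hepatocytes respond strongly to interferon, and a basal level of these transcripts is present in liver without infection.

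The libraries were close in depth. Relative depth, read from the step between low values, ran from 0.751 to 1.06 of that of 15 week WT library A. Hepatocyte markers summed to between 13480 and 23120 FPKM in every library, although Alb was listed at 0 in 18 of 18, so a listed 0 can be a failed estimate. Leukocyte and Kupffer cell markers (20 genes in the table) summed to 57.7 FPKM in the 1 week library, 11.5 to 28.5 at 3 weeks, 2.59 to 4.41 in 15 week WT, 9.48 to 16.6 and 3.65 to 16.7 in controls injected at 1 day and 3 weeks, and 3.89 to 7.27 and 11.5 to 21.8 in the corresponding DKO groups. The defining markers differed among themselves: Ptprc (CD45) never exceeded 0.130 FPKM and the T cell gene Cd3e was at 0 in 12 of 18 libraries, the neutrophil gene S100a9 was at 0 in 9 and reached 24.9 FPKM, and Lyz2, C1qb and Clec4f, of macrophages and Kupffer cells, were above 0 in all 18 with at most 4.36, 3.65 and 3.38 FPKM. Endothelial markers (8 genes) summed to 16.4 FPKM in the 1 week library, 16.5 to 29.5 at 3 weeks, 4.41 to 8.35 in 15 week WT, 8.16 to 12.2 and 5.28 to 14.4 in the controls, and 5.45 to 9.02 and 14.3 to 30.2 in DKO, in the same order. Erythroid markers (6 genes) summed to 2418 FPKM in the 1 week library and to 5.45 to 70.7 in the others. Cholangiocyte markers (5 genes) summed to 120.9 FPKM in the 1 week library and to 5.24 to 21.2 in the others. The 1 week values of the members come from that library alone, and the part of these cells in them was not tested. Sex-linked transcripts differed from those of the other libraries in the 3 libraries of 3 week WT and in control 3 weeks library C. Whole-gene FPKM of Tet2 and Tet3 cannot check the deletion, because the deleted exons are not stated in the sources used here. The study reports separate control experiments in which the injected virus deleted its targets efficiently. Tet2 measured 0.890 to 2.13 FPKM in controls injected at 1 day and was higher in the library group labelled DKO, at 2.82 to 4.08 (log2 difference 0.79, adjusted p = 0.0173), and after injection at 3 weeks it measured 2.08 to 2.99 in controls and 0.824 to 1.84 in DKO (adjusted p = 0.108). Tet3 measured 1.68 to 2.55 against 1.74 to 2.78 FPKM, and 2.44 to 2.89 against 1.56 to 1.67 (adjusted p = 0.612 and 0.0985).

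The promoters are shown first because the interferon-stimulated response element links 4 of the genes by sequence. The motif was searched as GAAANNGAAA on both strands (TTTCNNTTTC on the other), overlapping matches counted, in 250 bases before to 50 bases after each transcription start (RefSeq, GRCm38.p6). It was found at 4 of the 8 members with a promoter in the table, or 50.0%, against 3.99% of 27025 genes and 18 of 44 other interferon-stimulated genes (40.9%). Isg15 held 3 overlapping matches, Ifit1 and Ifit3 held 2 each and Rsad2 held 1; Ifit2, Irf7, Irf9 and Oasl1 held none in this window. The 160 bases before the start of the 4 genes with a match, and of Oasl1 for comparison, read as follows, with the matches in capitals.
Isg15, chr4:156200819-156200978, - strand: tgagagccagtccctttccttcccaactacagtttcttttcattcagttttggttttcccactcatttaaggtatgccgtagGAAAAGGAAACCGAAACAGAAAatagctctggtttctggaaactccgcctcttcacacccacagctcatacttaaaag
Ifit1, chr19:34640729-34640888, + strand: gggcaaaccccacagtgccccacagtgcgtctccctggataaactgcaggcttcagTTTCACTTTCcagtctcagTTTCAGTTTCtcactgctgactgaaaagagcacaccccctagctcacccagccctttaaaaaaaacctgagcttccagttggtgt
Ifit3, chr19:34583369-34583528, + strand: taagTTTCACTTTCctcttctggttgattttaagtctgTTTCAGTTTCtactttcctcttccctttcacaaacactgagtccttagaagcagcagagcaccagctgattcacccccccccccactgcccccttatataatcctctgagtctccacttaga
Rsad2, chr12:26456453-26456612, - strand: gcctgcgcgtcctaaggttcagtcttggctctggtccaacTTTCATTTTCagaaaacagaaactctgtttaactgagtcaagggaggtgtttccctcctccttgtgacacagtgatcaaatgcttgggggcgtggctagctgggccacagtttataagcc
Oasl1, chr5:114923080-114923239, + strand: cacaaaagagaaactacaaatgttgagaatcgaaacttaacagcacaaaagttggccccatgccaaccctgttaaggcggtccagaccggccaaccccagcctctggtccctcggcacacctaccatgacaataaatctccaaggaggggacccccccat
Ifit1 and Ifit3 shared both matched sequences, TTTCACTTTC and TTTCAGTTTC. A match is a string of letters in a window and was not measured as a binding site.

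A second set of sequences carries the methylation differences described further on. They are 4 of the 5 tiles of 100 bp at which reduced-representation bisulfite sequencing (RRBS) gave higher methylation in DKO than in injected control hepatocytes, read from the mouse genome build of the deposited tables, NCBIM37 (mm9), with each CpG in capitals. The first lies 301 bp and the next 9601 and 9701 bp after the Oasl1 start, all overlapping coding exons, and the last lies 9926 bp after the Usp18 start in an intron.
Oasl1, chr5:115373501-115373600, + strand: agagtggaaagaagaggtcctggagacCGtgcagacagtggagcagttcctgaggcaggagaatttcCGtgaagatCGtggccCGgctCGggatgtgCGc
Oasl1, chr5:115382801-115382900, + strand: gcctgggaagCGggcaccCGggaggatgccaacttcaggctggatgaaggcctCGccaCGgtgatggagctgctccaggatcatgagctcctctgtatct
Oasl1, chr5:115382901-115383000, + strand: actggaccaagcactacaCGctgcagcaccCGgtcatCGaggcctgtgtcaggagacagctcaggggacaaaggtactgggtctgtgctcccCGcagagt
Usp18, chr6:121205801-121205900, + strand: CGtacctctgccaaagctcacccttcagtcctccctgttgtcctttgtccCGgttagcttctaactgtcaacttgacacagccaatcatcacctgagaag
They held 6, 4, 4 and 2 CpGs, and each held 1 CCGG, the site cut by the enzyme commonly used for RRBS. The fifth tile, which covers the Oasl1 start, is not printed; it held 2 CpGs and 0 CCGG.

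Of the ubiquitin-like modifier and its protease, Usp18 was higher in DKO than in control hepatocytes after injection at 1 day, while Isg15 showed no such difference. ISG15 is a small protein that is attached to other proteins after interferon, and USP18 removes it and also damps the interferon receptor. Usp18 measured 6.72, 5.69 and 6.30 FPKM in controls injected at 1 day and 9.55, 17.4 and 7.13 FPKM in DKO injected at 1 day. Every DKO library lay above every control, but library B was far above the others. The mean was 11.4 ± 5.38 against 6.24 ± 0.516 FPKM (SD, n = 3 each), a log2 difference of 0.69 ± 0.23 (SE; all differences are of log2(FPKM + 1)) and an adjusted p of 0.0479 by limma, the test used for every gene here. The call was narrow. Leaving out any 1 of 5 of the 6 libraries ended it (all but DKO library C), fitting only these groups gave adjusted p = 0.11, and without DKO library B the difference was 0.36. Uninjected 15 week WT measured 7.03, 7.31 and 7.66 FPKM, all above the controls injected at 1 day, with a log2 difference of -0.21 (adjusted p = 0.917).

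For Usp18 the controls injected at 3 weeks stood higher than uninjected mice. They measured 11.6, 9.25 and 12.1 FPKM, none overlapping 15 week WT, with a log2 difference of 0.51 ± 0.23 that did not pass over all genes (adjusted p = 0.549). DKO injected at 3 weeks measured 11.3 and 14.4 FPKM and overlapped their controls (log2 difference 0.21, adjusted p = 0.635). Against uninjected 15 week WT the same DKO libraries differed by 0.72 ± 0.25 (adjusted p = 0.109), and by an adjusted p of 0.0228 when only these groups were fitted. The 3 week WT libraries measured 5.99, 7.26 and 8.46 FPKM and overlapped those of 15 weeks, and the 1 week library measured 12.2 FPKM. By mean level the groups ran from DKO injected at 3 weeks (12.8) through 1 week WT (12.2), DKO injected at 1 day (11.4) and control injected at 3 weeks (11.0) to 15 week WT (7.34), 3 week WT (7.23) and control injected at 1 day (6.24). Neighbours in that order overlapped, except control injected at 3 weeks and 15 week WT.

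Isg15 measured 9.55, 5.87 and 5.33 FPKM in uninjected 15 week WT, 5.90, 4.02 and 7.64 in controls injected at 1 day, and 6.60, 6.05 and 7.48 in those injected at 3 weeks. Both groups of injected controls overlapped the uninjected mice, although control 1 day library B lay below all of them. DKO injected at 1 day measured 4.65, 10.0 and 3.79 FPKM, and library B was again the highest. Their mean of 6.15 ± 3.36 FPKM (SD, n = 3) differed from that of the controls, 5.85 ± 1.81, by a log2 value of 0.00 ± 0.30 (adjusted p = 1). DKO injected at 3 weeks measured 6.20 and 10.1 FPKM. Isg15 was 10.0 FPKM at 1 week and 4.12, 5.37 and 3.46 at 3 weeks, the lowest group mean of the 7.

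**Figure D1:**
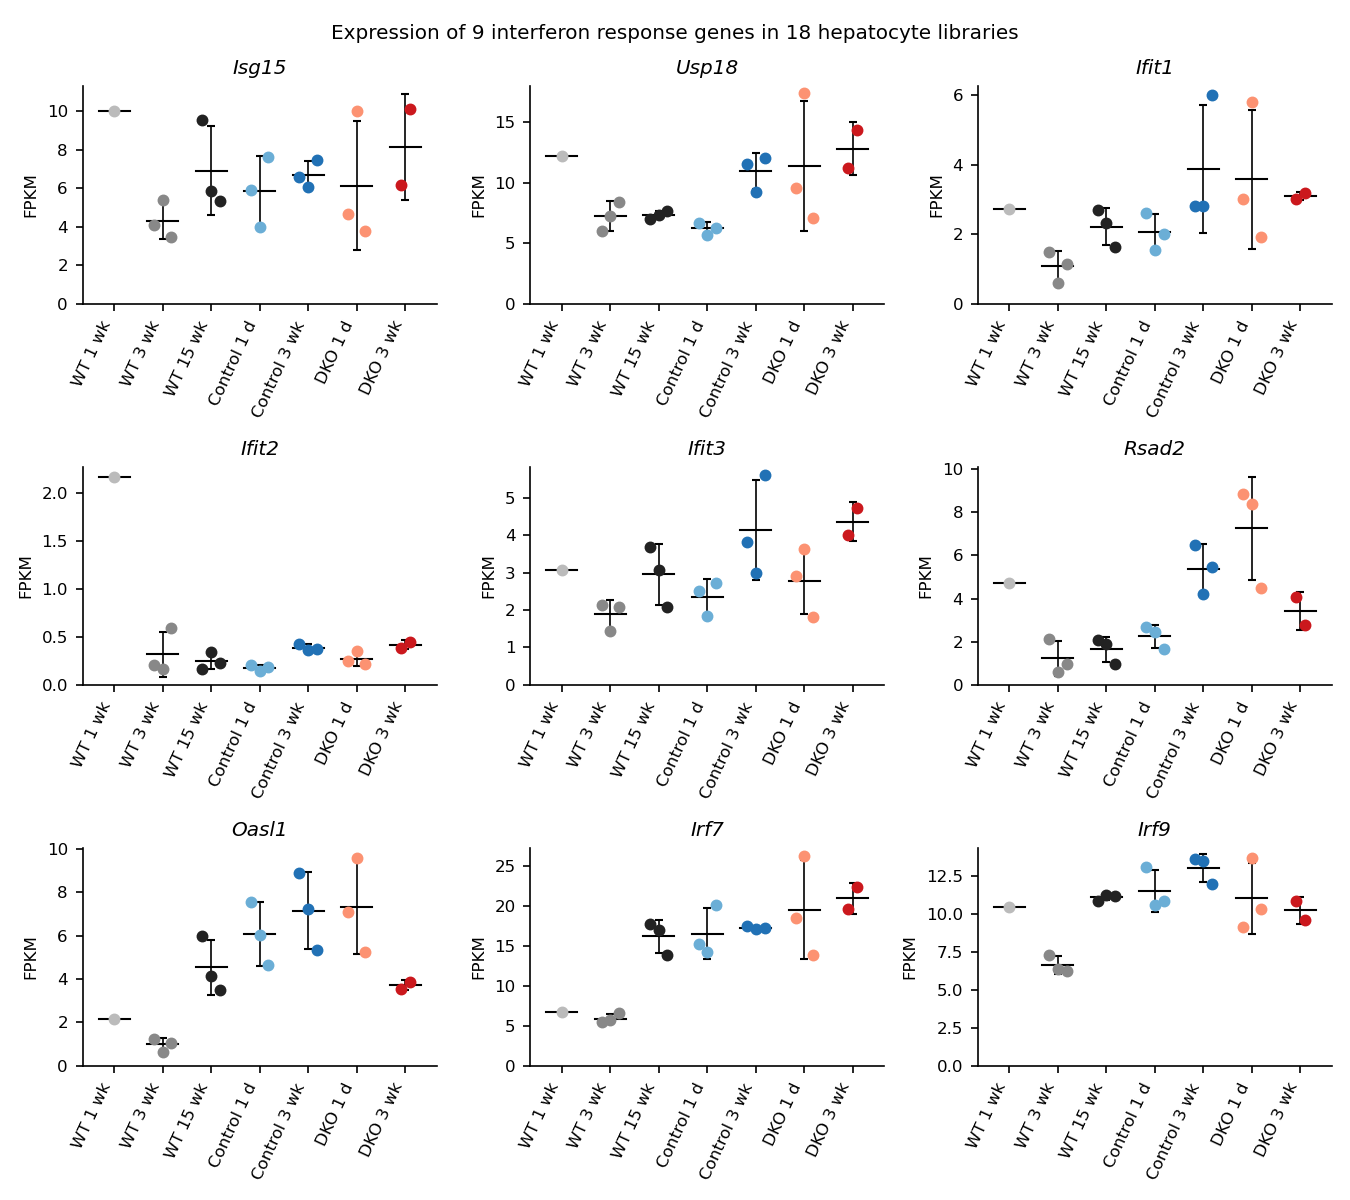
FPKM of the 9 genes in each of 18 libraries, 1 panel per gene and 1 point per library; horizontal bars are group means and vertical bars ± SD (none for the single 1 week library). WT groups are named by age and injected groups by the time of injection. For Rsad2 the DKO 1 d points lie at 4.50 to 8.84 FPKM and their controls at 1.67 to 2.69, and for Irf7 every 15 week library lies above every 3 week library.

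The 3 Ifit genes lie in one cluster on chromosome 19 and encode IFIT proteins, which bind viral RNA. None of them passed the test in any comparison. Ifit1 measured 2.70, 2.33 and 1.64 FPKM in uninjected 15 week WT, 2.61, 1.55 and 1.99 in controls injected at 1 day, and 2.81, 2.80 and 5.99 in controls injected at 3 weeks. The last group lay above uninjected WT in every library, with library C, whose sex-linked transcripts differ from those of its group, far above (log2 difference 0.55 ± 0.30, adjusted p = 0.673). DKO injected at 1 day measured 3.01, 5.80 and 1.92 FPKM against a control mean of 2.05 ± 0.536 (SD, n = 3), and overlapped it (log2 difference 0.51 ± 0.30, adjusted p = 0.242). DKO injected at 3 weeks measured 3.02 and 3.18 FPKM. At 3 weeks of age Ifit1 was at 1.49, 0.590 and 1.15 FPKM, below every 15 week library (log2 difference 0.65 ± 0.30, adjusted p = 0.114), and at 1 week it was at 2.72.

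Most groups also overlapped for Ifit3. Its levels were 3.69, 3.07 and 2.09 FPKM in uninjected 15 week WT, 2.52, 1.84 and 2.72 in controls injected at 1 day, 3.81, 2.99 and 5.61 in controls injected at 3 weeks, 2.91, 3.62 and 1.83 in DKO injected at 1 day, and 3.99 and 4.73 in DKO injected at 3 weeks. Only DKO injected at 3 weeks stood clear of uninjected WT (log2 difference 0.46 ± 0.24, adjusted p = 0.284). Ifit2 was near the floor of the table. It reached 2.17 FPKM in the 1 week library and lay between 0.148 and 0.590 FPKM in the other 17, so it entered the tests through that library alone. Below 1 FPKM the log2(FPKM + 1) scale understates a change: Ifit2 in DKO injected at 1 day (0.219 to 0.356 FPKM) did not overlap its control (0.148 to 0.208), with a log2 difference of 0.11 ± 0.10 (adjusted p = 0.454).

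Rsad2 had the largest log2 difference of the 9 genes both between DKO and control after injection at 1 day and between controls injected at 3 weeks and uninjected mice. It encodes viperin, an enzyme that makes a nucleotide analogue that stops viral RNA synthesis. In uninjected 15 week WT it measured 2.09, 1.88 and 0.982 FPKM, and in controls injected at 1 day 2.69, 2.44 and 1.67. These groups overlapped (log2 difference 0.31 ± 0.28, adjusted p = 0.878). DKO injected at 1 day measured 8.84, 8.40 and 4.50 FPKM, every library above every control. Its mean of 7.25 ± 2.39 FPKM was 3.20 times that of the controls, 2.26 ± 0.532 (SD, n = 3 each), a log2 difference of 1.30 ± 0.28 with adjusted p = 0.00698, and this passed without each of the 6 libraries in turn (1.15 to 1.57). Against uninjected 15 week WT the DKO mean was 4.40 times as high (log2 difference 1.62 ± 0.28, adjusted p = 0.00137). The leukocyte marker sum moved the other way, being lower in these DKO libraries than in their controls. Its part in the result was not tested.

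The controls injected at 3 weeks measured 6.46, 4.22 and 5.47 FPKM of Rsad2, also clear of uninjected WT. Their mean of 5.39 ± 1.12 FPKM was 3.27 times the uninjected mean of 1.65 ± 0.586, and the log2 difference of 1.28 ± 0.28 missed the threshold (adjusted p = 0.0812; 0.0445 after scaling each library by its median ratio, and 0.0445 to 0.355 over the alternatives). DKO injected at 3 weeks measured 4.05 and 2.79 FPKM, below every library of that control (log2 difference -0.53 ± 0.31, adjusted p = 0.298) and above every uninjected one (0.75 ± 0.31, adjusted p = 0.167). The leukocyte marker sum of these controls was 16.7, 15.6 and 3.65 FPKM in libraries A, B and C, against 2.59 to 4.41 in uninjected 15 week WT. Only library C overlapped, and the role of the sum was not tested. Both comparisons of DKO injected at 3 weeks share libraries with the one between injected and uninjected controls. The difference between the DKO effects at the 2 injection times was itself tested as an interaction and gave 1.83 ± 0.42 on the log2 scale (adjusted p = 0.0364). It was lost in 5 of 11 leave-one-out fits, those without control 1 day library C, control 3 weeks library A or C, DKO 1 day library A or DKO 3 weeks library B (adjusted p up to 0.204), and without a filter on low values (adjusted p = 0.0657). Rsad2 was at 4.71 FPKM at 1 week and at 2.12, 0.582 and 0.975 FPKM at 3 weeks.

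Oasl1 was higher in 15 week than in 3 week WT, groups that also differ in sex-linked transcripts. No difference with the deletion passed the test. The gene encodes an OAS-like protein that, in mouse, restrains the translation of IRF7. Its levels were 1.25, 0.660 and 1.05 FPKM in 3 week WT and 5.96, 4.14 and 3.50 in 15 week WT, with no overlap. The 15 week mean, 4.53 ± 1.28 FPKM, was 4.60 times the 3 week mean, 0.986 ± 0.299 (SD, n = 3 each), a log2 difference of 1.47 ± 0.23 (adjusted p = 0.000289). The single 1 week library measured 2.17 FPKM. Controls injected at 1 day measured 7.55, 6.02 and 4.63 FPKM and DKO injected at 1 day 7.10, 9.58 and 5.25 FPKM, which overlapped (log2 difference 0.22 ± 0.23, adjusted p = 0.529). Controls injected at 3 weeks measured 8.89, 7.21 and 5.34 FPKM, and both libraries of DKO injected at 3 weeks, 3.55 and 3.88 FPKM, lay below all of them. That difference, -0.77 ± 0.26, did not pass (adjusted p = 0.0878), and neither did the difference between the DKO effects, 0.99 ± 0.34 (adjusted p = 0.0838; 0.035 after scaling by the median ratio).

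Both transcription factors were higher in 15 week than in 3 week WT, groups that also differ in sex-linked transcripts. No difference with injection or genotype passed for either. IRF7 drives the amplification of interferon production, and IRF9 is the DNA-binding part of ISGF3. Irf7 measured 17.8, 17.0 and 13.9 FPKM in 15 week WT, 15.3, 14.2 and 20.2 in controls injected at 1 day, and 17.5, 17.1 and 17.3 in controls injected at 3 weeks. DKO injected at 1 day measured 18.6, 26.2 and 13.9 FPKM, library B again the highest, and DKO injected at 3 weeks 19.6 and 22.4. Only the last group stood clear of its control (log2 difference 0.26 ± 0.21, adjusted p = 0.442). At 3 weeks of age Irf7 was at 5.46, 5.74 and 6.59 FPKM, well below 15 weeks. The mean was 5.93 ± 0.589 FPKM at 3 weeks and 16.2 ± 2.06 FPKM at 15 weeks (SD, n = 3 each). The log2 difference was 1.31 ± 0.18 (adjusted p = 0.000127 by limma). The 1 week library, at 6.77 FPKM, was close to those of 3 weeks.

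Irf9 differed less between 3 and 15 weeks. It measured 7.30, 6.40 and 6.24 FPKM at 3 weeks and 10.9, 11.2 and 11.2 FPKM at 15 weeks. The log2 difference was 0.66 ± 0.13 (adjusted p = 0.0014 by limma). The 1 week library, at 10.4 FPKM, was close to those of 15 weeks. Controls measured 13.1, 10.6 and 10.8 FPKM after injection at 1 day and 13.6, 13.5 and 12.0 after injection at 3 weeks, the latter above every uninjected library (log2 difference 0.21 ± 0.13, adjusted p = 0.722). DKO measured 9.15, 13.7 and 10.3 FPKM after injection at 1 day, and 10.9 and 9.62 after injection at 3 weeks, the latter below every control (log2 difference -0.32 ± 0.14, adjusted p = 0.18). No difference in Irf9 by injection or genotype passed the test.

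All 9 members were among the 11166 genes tested, that is, those whose average reached 1 FPKM in some group. Ifit2 reached it only in the single 1 week library, which none of the comparisons used. Where Ifit2 is counted below as wholly above, its values were all under 1 FPKM. Between controls injected at 1 day and uninjected 15 week WT, 0 of 9 passed, and so did 0% of all genes (855 had an unadjusted p under 0.05 by limma, none of them a member); 1 member, Usp18, lay wholly below, as did 11.3% of all genes. Between controls injected at 3 weeks and uninjected WT, 0 of 9 passed against 0.385% of all genes, but 3 members (Rsad2, Usp18 and Oasl1) had an unadjusted p under 0.05, as had 958 of the 11166 genes. In that comparison 5 members (Rsad2, Usp18, Ifit1, Ifit2 and Irf9) lay wholly above uninjected WT against 9.38% of all genes, and the median member difference was 0.37 on the log2 scale against 0.00 over all genes. All 8 endothelial markers and 10 of 12 leukocyte and Kupffer cell markers also had a positive difference there, and 0 of them passed. Of stellate cell and fibroblast markers 0 of 5 had a positive difference. The part of these cells in the members' result was not tested. The 9 values of a library are not independent of each other.

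In DKO injected at 1 day against its control, 2 of 9 members (Rsad2 and Usp18) were higher against 4.33% of all genes, and 0 were lower against 15.6%. There 3 members (Rsad2, Usp18 and Ifit2) lay wholly above the control, against 11.4% of all genes. The median member difference was 0.20 and that of all genes -0.11. In DKO injected at 3 weeks against its control, 0 of 9 were higher against 0.905% of all genes and 0 lower against 4.34%. There Irf7 lay wholly above (all genes 16.0%) and Irf9, Oasl1 and Rsad2 wholly below (all genes 32.4%), each a share of the members close to that of all genes. In the interaction, 1 of 9 (Rsad2) was higher after injection at 1 day, against 2.33% of all genes.

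The comparisons with uninjected mice use the same DKO libraries. DKO injected at 1 day against uninjected 15 week WT gave 1 of 9 higher (Rsad2, all genes 5.44%), the same gene being the only member wholly above (all genes 12.6%); without DKO library C 3 members passed. DKO injected at 3 weeks against uninjected WT gave 0 of 9 against 6.57% of all genes called in either direction. In it 6 members (Rsad2, Usp18, Irf7, Ifit1, Ifit2 and Ifit3) lay wholly above against 14.7% of all genes, and Irf9 wholly below against 31.9%. Markers of some other cell types moved in the same direction there. All 8 endothelial markers had a positive difference and 2 passed the test. Of 12 leukocyte and Kupffer cell markers 10 had a positive difference and 2 passed. Stellate cell and fibroblast markers mostly went the other way, with 1 of 5 positive, and 2 of 3 cholangiocyte markers were positive, with 0 passing in either list. Their part in the members' result was not tested. Between 15 and 3 weeks of age 3 of 9 members (Irf7, Irf9 and Oasl1) were higher against 24.0% of all genes. Ifit1 joined these as wholly above (4 of 9, all genes 32.3%). The 3 week libraries also differ from all 15 week WT libraries in sex-linked transcripts, so age and sex cannot be told apart there. Of 12 leukocyte and Kupffer cell markers tested, 10 were lower at 15 weeks, as were all 8 endothelial markers. The part of these cells in the members' difference between ages was not tested.

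The scaling of libraries moved the balance of calls over all genes. Scaling each library by its median ratio changed the share of calls that were higher from 21.7% of 2228 to 53.2% of 2837 in DKO injected at 1 day against control, from 17.2% of 586 to 43.4% of 1337 after injection at 3 weeks, from 24.4% to 53.3% and from 23.6% to 45.5% in these DKO groups against uninjected WT, from 72% to 45.7% with age, and from 43.4% to 53.9% in the interaction. The median of all genes moved from -0.106 to 0.0204, from -0.131 to 0.00602 and from 0.155 to -0.0179 in the 1 day DKO comparison with control, in that with uninjected WT, and with age. With DKO injected at 1 day, 7 of 9 members had a positive difference as deposited and 9 of 9 after scaling; with DKO injected at 3 weeks it was 5 of 9 both ways.

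**Figure D2:**
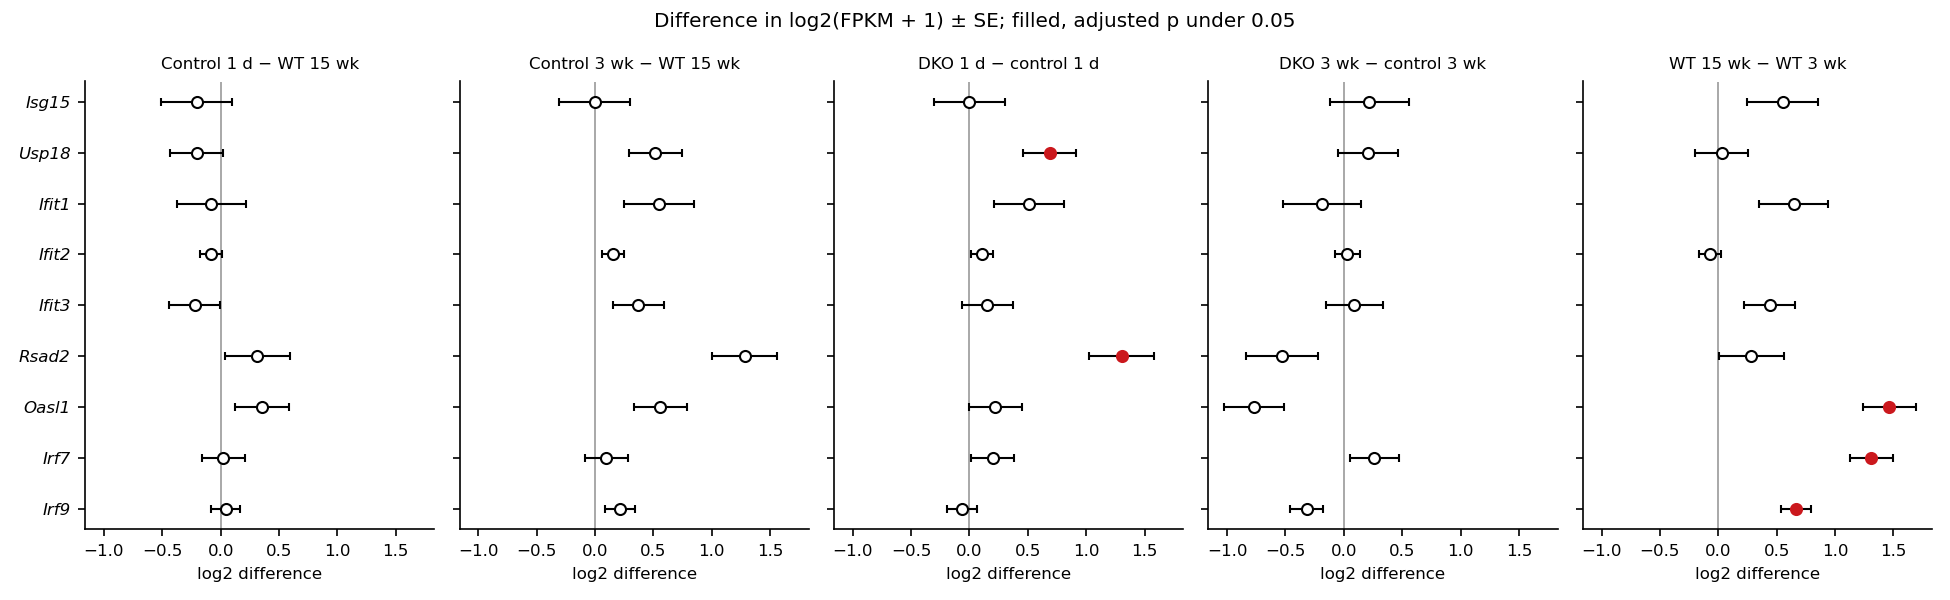
Difference in log2(FPKM + 1) for each of the 9 genes in 5 comparisons, with SE bars; filled points passed adjusted p under 0.05 by limma over 11166 genes. Rsad2 (1.30) and Usp18 (0.69) are filled for DKO 1 d minus its control, and Oasl1 (1.47), Irf7 (1.31) and Irf9 (0.66) for 15 minus 3 weeks.

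Single libraries set much of the spread. DKO 1 day library B was the highest of its group for 8 of 9 members, all but Rsad2, and library C the lowest for 8. Expressed as the mean of the members' standardised log2 values, library B stood at 1.29, the highest of 18, and the 3 libraries of 3 week WT at -1.10, -1.47 and -1.10. Over 18 libraries the 36 pairs of members had a median Pearson r of 0.535 (-0.297 to 0.875), and within groups, over 17 libraries, of 0.414 (-0.0365 to 0.900, the highest for Ifit1 with Ifit3). The points share libraries, so these are descriptions. Among non-members the level of Xaf1, an interferon-stimulated gene, followed that mean most closely over 18 libraries (r = 0.908), and Cmpk2 (0.890), Irgm1 (0.880) and Iigp1 (0.870), also interferon-induced, were close behind. Outside the fixed gene lists the 10 closest were I830012O16Rik (0.890), a near copy of Ifit3 whose reads cannot be surely told apart from it, then H2-T24 (0.877), Slc35f5 (0.862), Cdk5rap1 (0.852), Msantd4 (0.846), BC004004 (0.844), Tmem180 (0.842), Tmem167 (0.840), Tmem199 (0.839) and Asah1 (0.837).

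Of 49 other interferon-stimulated genes tested, 12 were higher in DKO injected at 1 day than in control, against 4.33% of all genes, and 1 was lower, against 15.6% (median log2 difference 0.15, all genes -0.11). After injection at 3 weeks 1 was higher and 6 were lower, against 0.905% and 4.34% of all genes (median -0.35, all genes -0.07), and lower calls also prevailed over all genes there, with 485 of 586. The larger ones at 1 day were Oas1g, which makes the messenger that activates RNase L (3.72 against 0.674 FPKM, log2 difference 1.47, adjusted p = 9.1e-05), its neighbour Oas1a (4.40 against 1.23, 1.24, adjusted p = 0.00135), both close copies that share reads, and Ifi27, which was lower (32.7 against 73.0, -1.16, adjusted p = 0.00117). At 3 weeks they were Helz2 (12.9 against 29.4 FPKM, -1.17, adjusted p = 0.0368), Parp14 (2.63 against 5.55, -0.85, adjusted p = 0.0225) and Ifitm2, which was higher (112 against 61.6, 0.85, adjusted p = 0.0452). The interaction was positive and past the threshold for 12 of the 49 (2.33% of all genes) and negative for 0. Injection alone gave 0 of 49 at either time by limma, and age gave 25 higher (24.0% of all genes) and 1 lower.

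The upstream part of the pathway could be tested only in part. The table held 19 of 23 interferon genes, none above 0.365 FPKM and 13 at 0 in every library, so no ligand could be tested. Of 8 receptors and kinases tested, Ifnar1, a chain of the type I receptor, was higher in DKO injected at 1 day (5.81 against 4.44 FPKM, log2 difference 0.32, adjusted p = 0.0375), and Tyk2, a kinase bound to it, was lower in DKO injected at 3 weeks (4.63 against 6.70, -0.45, adjusted p = 0.05 after rounding up). Of 13 sensors and adaptors, Traf3 was lower in both (-0.34 and -0.57, adjusted p = 0.0371 and 0.0162). Among the other interferon regulatory factors, Irf5 was lower after injection at both times (-0.92 and -1.17) and Irf2 after injection at 1 day (-0.99). The 6 negative regulators gave 0 calls at either time by limma.

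Genes of interferon gamma and antigen presentation were called about as often as all genes after injection at 1 day. Of 30 tested, 1 was higher and 4 were lower, against 4.33% and 15.6% of all genes, led by the chemokine genes Cxcl9 (0.814 against 3.95 FPKM, log2 difference -1.39, adjusted p = 0.0147) and Cxcl11 (-0.91) and by Psmb9, an immunoproteasome subunit (-0.85). After injection at 3 weeks 4 were lower against 4.34% of all genes, led by Gbp6 (-1.33), Nlrc5 (-1.11) and Cxcl11 (-0.94). Of 16 acute-phase genes, Fgg (0.54) and Itih3 (0.53) were higher after injection at 1 day and none passed after injection at 3 weeks. In bulk hepatocyte RNA, fewer cells of a type and less RNA per cell cannot be told apart.

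Methylation around the members was read first in whole-genome bisulfite sequencing (WGBS) of newborn WT, adult WT and DKO hepatocytes (injected at 1 day), 1 library each, given as the percent methylation of 200 bp tiles. Without replicates and with the reads behind each tile unknown, a difference of at least 35 percentage points is counted and no test is given. Of 713 tiles at the 9 genes with both values, 32 were lower in adult than in newborn WT (1.64% of all tiles were) and 2 were higher (0.265% of all tiles). Of 711 tiles, 40 were higher in DKO than in adult WT (all tiles 1.98%) and 1 was lower (all tiles 0.247%). The average over all member tiles was 75.0% for newborn, 70.5% for adult and 75.6% for DKO, and over the genome's tiles 78.6%, 75.8% and 76.3%.

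The 2 genes Oasl1 and Usp18 held most of these tiles. Oasl1 had 11 tiles lower in the adult and 13 higher in DKO, and Usp18 had 12 and 16, while Irf9 and Rsad2 had 3 and 3, Isg15, Ifit2 and Ifit3 1 and 1, Ifit1 0 and 2, and Irf7 0 and 0. Inside Oasl1 the tile centred 9651 bp after the start went from 84.1% in newborn to 11.1% in adult WT and was at 86.2% in DKO, the tile at 3851 bp went from 70.8% to 3.03% with 87.0% in DKO, and the tile at 2051 bp from 62.9% to 4.55% with 88.6% in DKO. In Usp18 the tile at 17176 bp went from 90.9% to 20.0% (DKO 88.0%), and that at 5576 bp from 57.3% to 5.88% (DKO 78.9%). For Rsad2 the largest was 18217 bp after the start, beyond the gene's end (76.9%, 8.00% and 80.6%), with another just before the start at -383 bp (55.9%, 16.0% and 55.3%). Ifit3 had one at -321 bp (36.1%, 2.22% and 49.1%), past the 35 points in DKO against adult but not in adult against newborn.

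Most starts were already low in methylation. In newborn, adult and DKO libraries the start tile was at 0.357%, 0.452% and 2.05% for Usp18, 2.29%, 0% and 0.633% for Irf7, 1.33%, 0.885% and 0.719% for Ifit2, and 0% in all for Ifit1. Those of Isg15 (11.8%, 0% and 19.0%), Oasl1 (7.84%, 0% and 11.2%) and Rsad2 (15.2%, 5.26% and 15.9%) were lowest in the adult. Irf9 was the exception, with 72.1% in newborn, 42.9% in adult and 60.7% in DKO at its start, and -308 bp from the start it went from 82.1% to 33.1% and was at 81.6% in DKO.

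**Figure D3:**
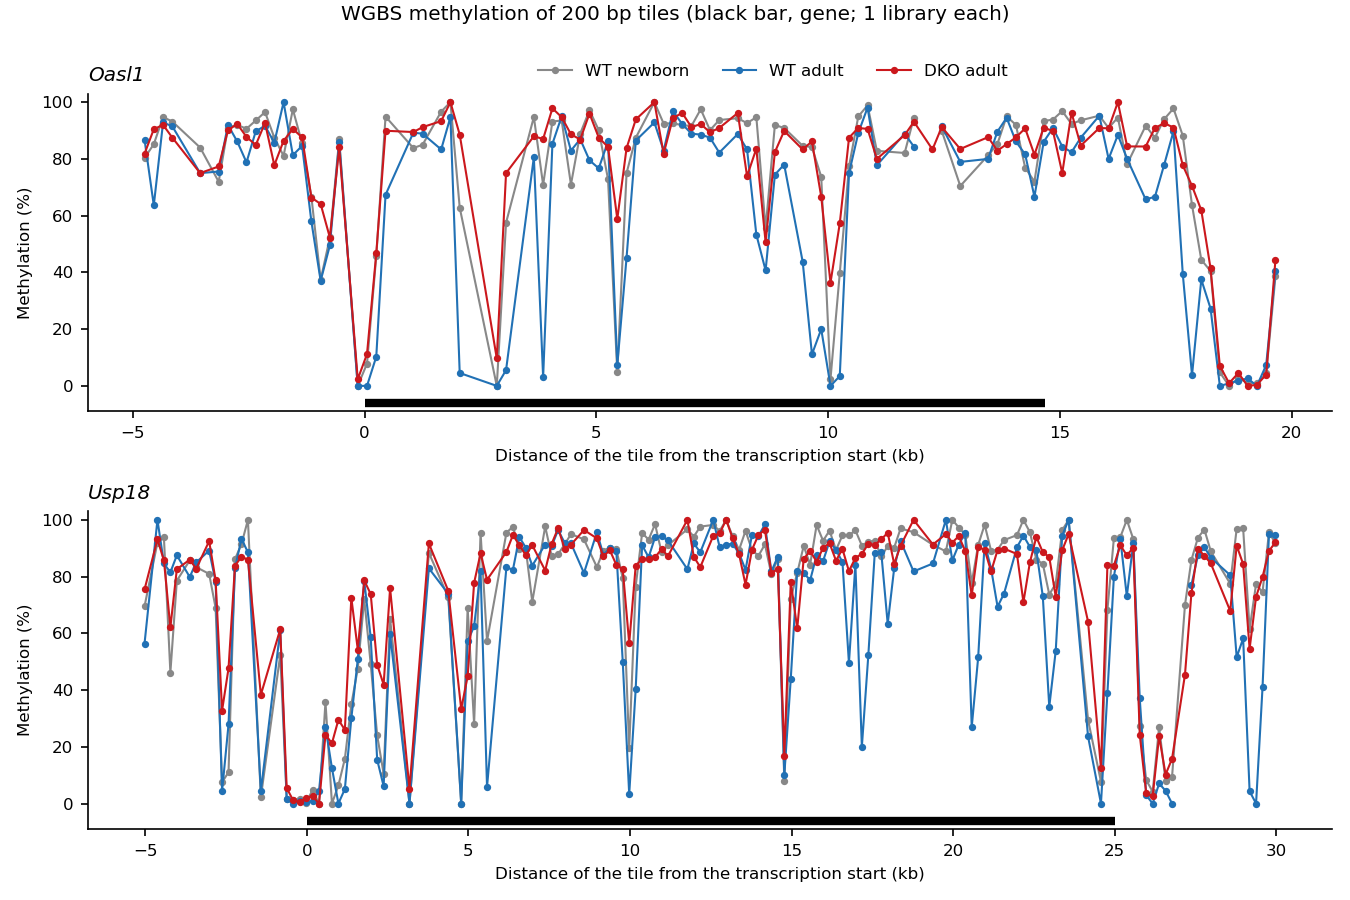
WGBS methylation (%) of 200 bp tiles along Oasl1 and Usp18 by distance from the transcription start (kb), 1 library per line; the black bar is the gene. The adult WT line drops far below the newborn and DKO lines inside both genes, for example to 3.03% at 3.85 kb of Oasl1, while at the Usp18 start all 3 lines lie below 3% and at the Oasl1 start between 0% and 11.2%.

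The RRBS table gave mice rather than single libraries, with 3 controls and 2 DKO mice at each time of injection. The columns of these mice and of 3 week WT are named by an animal number alone, and their groups rest on the same number in a named expression column. It listed 187 tiles of 100 bp at the 9 genes, none at Ifit1, and 76 had a value in all 10 mice and were tested by limma over 393225 tiles; the reads behind a value are not given. After injection at 1 day, 5 of 76 were higher in DKO (1.90% of all tiles) and 0 lower (0.163% of all tiles). After injection at 3 weeks, 3 were higher (0.552% of all tiles) and 0 lower (0.128% of all tiles). The median difference over the 76 tiles was 0.531 and 0 percentage points. All 5 tiles were in Oasl1 (4) and Usp18 (1), and neighbouring tiles of 1 gene are not independent.

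At the pair of tiles 9601 and 9701 bp after the Oasl1 start, whose sequences are printed above, the injected controls and the DKO mice lay far apart. At 9701 bp the 6 controls measured 0.714%, 4.54%, 1.88%, 1.56%, 4.54% and 3.68%, DKO injected at 1 day 83.0% and 89.8%, and DKO injected at 3 weeks 86.5% and 88.9%. The differences were 84.1 ± 4.90 points (SE, adjusted p = 0.000205) and 84.4 ± 4.90 points (adjusted p = 0.00177). At 9601 bp the controls ran from 4.24% to 17.6% and DKO from 79.4% to 92.3% (differences 76.9 and 77.6 points, adjusted p = 0.00235 and 0.00909). The 3 week WT mice measured 70.7% and 54.5% at the former and 84.4% and 93.2% at the latter. Hepatocytes without the insulin receptor measured 54.9% and 60.0%, and 67.9% and 71.5%, cultured hepatocytes 96.7% and 96.3%, and 88.1% and 92.6%, fat 96.4% and 87.8% and neutrophils 98.5% and 96.6%, so that of these groups only the injected controls were below 20%.

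Near the Oasl1 start the DKO mice of the 2 injection times had different values. At the start tile the 6 controls were all at 0%, DKO injected at 1 day measured 26.8% and 18.6%, and DKO injected at 3 weeks 0% and 0% (differences 22.7 ± 2.00 points, adjusted p = 0.00139, and 0 points). At 301 bp the controls ran from 4.06% to 20.3%, DKO injected at 1 day measured 78.2% and 75.1%, and DKO injected at 3 weeks 59.7% and 48.2%. The first difference, 66.8 ± 6.88 points, passed (adjusted p = 0.00295 by limma) and the second, 39.3 ± 6.88 points, did not (adjusted p = 0.07). The difference between the times was not tested. Uninjected 3 week WT mice measured 4.71% and 31.25% at the start tile, and 55.6% and 62.6% at 301 bp. At the Usp18 tile 9926 bp after the start the controls ran from 8.55% to 27.6% and the 4 DKO mice from 63.9% to 81.6% (55.1 and 52.6 points, adjusted p = 0.0164 and 0.0474). There, unlike at the called Oasl1 tiles beyond the start tile, 3 week WT was already low, at 2.35% and 11.3%. Fat and neutrophils were at 90.9% and 95.8%.

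The Irf9 start tile did not pass but was ordered alike. Controls measured 53.3%, 52.6% and 67.0% after injection at 1 day and 33.3%, 43.6% and 42.7% after injection at 3 weeks, DKO 77.0% and 87.3%, and 76.1% and 90.9%, and no DKO mouse overlapped its controls (24.5 ± 7.68 points, adjusted p = 0.277, and 43.6 ± 7.68 points, adjusted p = 0.0714). Fat and neutrophils stood at 6.40% and 2.72%. Irf9 expression in the same groups overlapped or was lower in DKO, as given above. By animal number, the 10 injected mice were measured in both assays. At the Oasl1 tile 9701 bp after the start the 6 controls had 0.714% to 4.54% methylation and 4.63 to 8.89 FPKM. The DKO mice injected at 1 day had 83.0% with 7.10 FPKM and 89.8% with 9.58 FPKM, and those injected at 3 weeks 86.5% with 3.55 FPKM and 88.9% with 3.88 FPKM. The expression of the former lay within or above the range of the controls and that of the latter below it, at like methylation. No correlation across these mice was computed, because they fall into separate clusters by methylation.

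**Figure D4:**
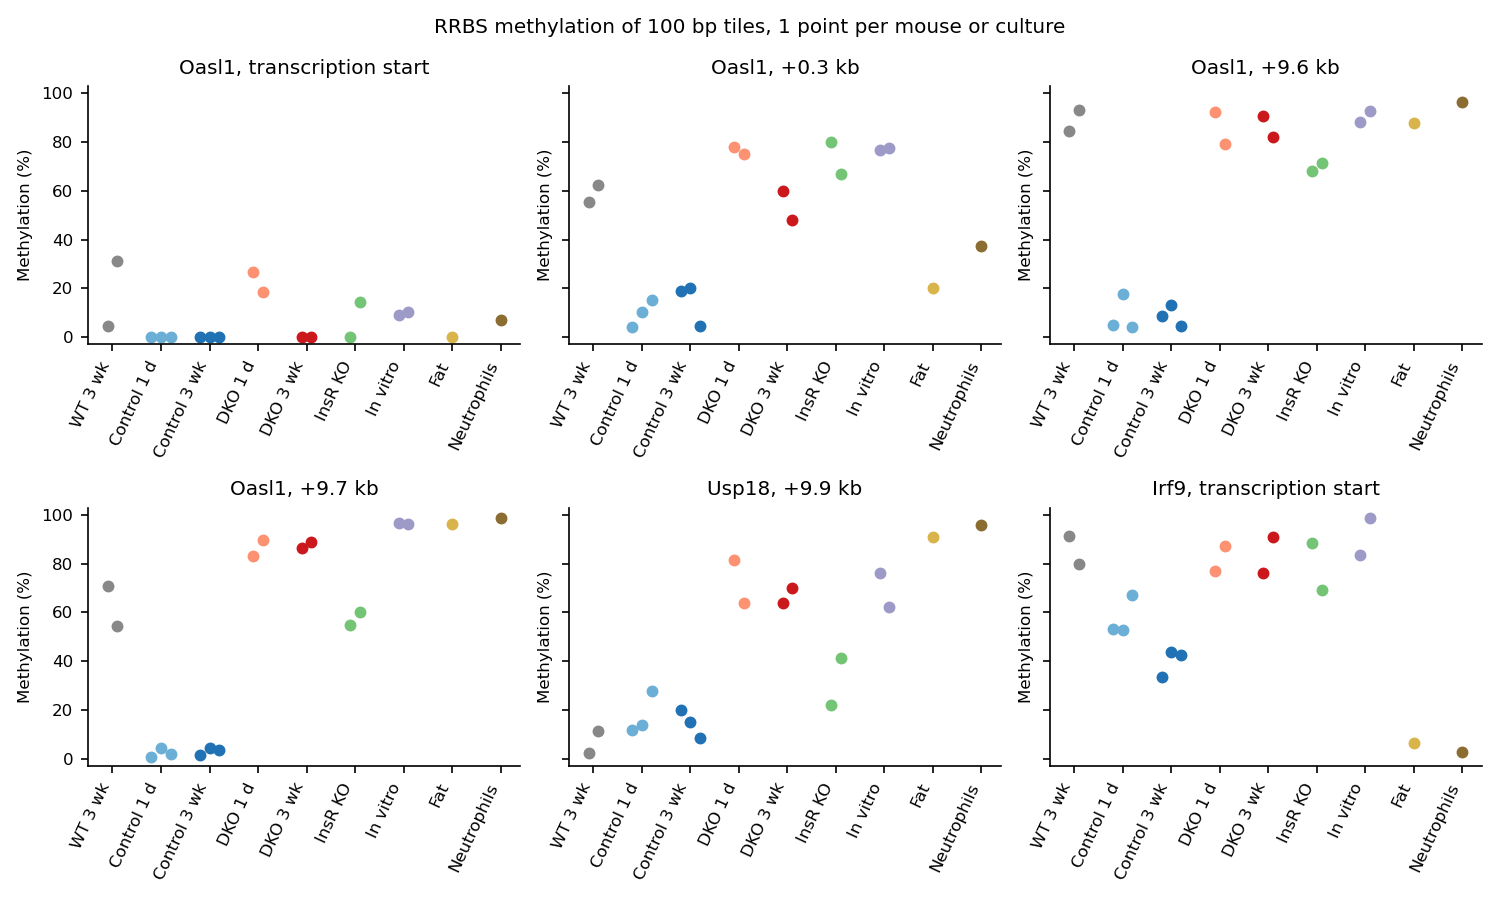
RRBS methylation (%) of 6 tiles of 100 bp, 1 point per mouse or culture, by group; the panels are the 5 tiles that passed after injection at 1 day and the Irf9 start tile, which did not. At Oasl1 +9.7 kb the injected controls lie below 5% and all 4 DKO mice above 80%.

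Peaks of the other assays were read at the members as the authors' caller gave them, in tags scaled per library, with no test. ATAC-Seq, which marks open chromatin, had a peak at 7 of the 9 genes in all 4 libraries (WT 2, DKO 2). Within 1000 bp of the start it had a peak at 7 and 6 members in WT (53.5% and 53.4% of 22380 protein-coding genes). In DKO these were 7 and 7 members (52.7% and 55.2% of those genes). The peak at or just before the Usp18 start had a tag count of 16.0 and 10.6 in WT and 15.3 and 17.1 in DKO, which overlapped. Inside Oasl1 a peak about 10 kb after the start measured 10.1 and 3.51 in WT and 3.77 and 3.60 in DKO, so that 1 WT library stood apart. Near that position 5-hydroxymethylcytosine (5hmC), the product of the Tet enzymes, had a peak in WT hepatocytes of mice about 3 weeks old. That peak spanned 1229 bp and was centred 9651 bp after the start (20.2 tags). At 15 weeks H3K27ac, a mark of active enhancers, had a peak of 26.3 tags at 9798 bp in WT and none there in DKO. The 2 marks were thus read at different ages. All 9 genes had a 5hmC peak, 42 distinct peaks in all, and none lay on a start. That library lists 287566 peaks, and 3.09% of 22380 protein-coding genes had one on their start. The share of all genes with a peak in the gene or 5000 bp around it was not computed.

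H3K27ac and H3K4me1, a mark of enhancers and of the flanks of promoters, were measured in 1 library per genotype. H3K27ac peaks lay on the start of 8 members in DKO and of 4 in WT, against 44.7% and 38.0% of 22380 protein-coding genes. Within 1000 bp of the start it was 8 and 6 members (49.6% and 44.6% of those genes), since the WT peaks of Usp18 and Ifit3 ended short of the start. The peak at Irf9 measured 203.7 tags in DKO (2973 bp wide) and 90.2 in WT (2750 bp). At Oasl1 the values were 119.4 (2441 bp) and 73.9 (2415 bp). The peak at Irf7 measured 79.9 and 42.0, but it spans 3214 bp in DKO and 1801 bp in WT. At Isg15 the peak measured 167.4 and 24.3, but the DKO peak spans 5083 bp and the WT peak 1162 bp. Rsad2 and Ifit1 had a start peak in DKO alone (22.5 and 32.3 tags). The files held 46782 peaks in DKO and 43085 in WT. HNF6, a liver transcription factor, had no peak at the members in either WT library and 1 and 6 in the DKO libraries. The second of these lists 34665 peaks against 4387 to 9355 in the others. Within 1000 bp of the start the WT libraries had a peak at 0 and 0 members (2.08% and 4.12% of protein-coding genes). The DKO libraries had one at 0 and 2 members (5.53% and 13.9%).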

How the data were processed

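Per the study's methods, RNA-Seq reads of 50 bp had been trimmed, aligned with TopHat and turned by the authors into FPKM with Cufflinks; fold changes and p-values were not among the deposited columns. The deposited bisulfite tables hold the fraction of methylated readings per tile (200 bp for WGBS, 100 bp for RRBS), and the deposited peak files hold a signal, the tag count scaled per library by the authors' peak caller. Processing notes of the submitters name Trim Galore 0.3.3, BSMAP 2.74, cutadapt 1.15, Bowtie2 2.2.4 and the build mm9. No file gives read counts or coverage, so depth is known here only as relative depth for RNA (0.751 to 1.06). For methylation the reads behind each tile are unknown. The study's methods state a WGBS depth above a common standard and a minimum coverage for tiles.

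Expression columns were assigned to a group by name. RRBS columns of the injected and 3 week WT mice carry an animal number alone and were assigned through the same number in an expression column; that link rests on the number. They carry animal numbers but no replicate numbers, and the labels do not say how the samples of a group are related, so p-values measure the spread between these samples. Of the per-sample columns, 36 were used and 49, which matched no single group or were not needed, were not.

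FPKM values were tested as log2(FPKM + 1) with limma 3.58.1 in R 4.3.3, in 1 fit of 18 libraries with a term for each group, for genes whose average reached 1 FPKM in a group. The empirical Bayes step used a trend, p-values were adjusted by the Benjamini-Hochberg method over 11166 genes, and 0.05 was the threshold. RRBS fractions were tested as percent in the same way over the 393225 tiles with a value in all 10 injected mice, with a minimum difference of 10 points. WGBS differences were counted at 35 points, and a peak was assigned to a gene when it overlapped the gene or 5000 bp around it by at least 1 bp. Both fits were tested on simulated data. Python 3.11.15 with pandas 2.3.3 read the tiles, peaks and sequences.

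All 9 members are named. Of each other gene list, up to 3 genes with the largest difference among those past the threshold are named, and the 10 genes outside these lists closest to the members by correlation. The members and the lists were chosen with earlier results of these data known. Alternatives tried were a pseudocount of 0.1, other filters on low values, scaling by the median ratio, a fit of the compared groups alone, no trend, leaving out each library, and other limits for tiles and peaks. Some results on single genes of the fixed lists are not reported here.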

Additional observations from a re-analysis of the deposited data

Results flagged for a closer look

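For 4 of the named genes the effect of the deletion passed a test of its difference between the 2 times of injection. That test took the effect after injection at 1 day minus that after injection at 3 weeks. For Rsad2 the difference was 1.83 ± 0.42 on the log2 scale (SE, adjusted p = 0.0364), for Parp14 1.11 (adjusted p = 0.0358), for Helz2 1.68 (adjusted p = 0.0372) and for Nlrc5 1.25 (adjusted p = 0.0322), all by limma over 11166 genes. For each of these genes the DKO libraries injected at 3 weeks were lower on average than their controls, and for Rsad2 those controls were themselves 3.27 times as high as uninjected mice. The Rsad2 result was lost in 5 of 11 fits that left out 1 library, and without a filter on low values. Parp14, Helz2 and Nlrc5 were named because they were lower in DKO injected at 3 weeks, and the test reuses those libraries. Time, route and dose of injection cannot be told apart.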

How the results depend on the processing

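No paired analysis was possible because the table columns carry animal numbers and not the replicate numbers of the labels. Without a filter on low values the number of members past the threshold went from 2 to 1 in DKO injected at 1 day against control and from 1 to 0 in the difference of the DKO effects. After scaling by the median ratio it was 1 in controls injected at 3 weeks against uninjected WT (Rsad2), 2 in DKO injected at 1 day against uninjected WT (Rsad2 and Oasl1, adjusted p = 0.0221) and 2 in the difference of the effects. With only the compared groups fitted it was 1 in DKO injected at 1 day against control, 1 in DKO injected at 3 weeks against uninjected WT and 5 between 15 and 3 weeks of age. Without the library whose sex-linked transcripts differ, the difference of the effects had 0. Leaving out 1 library at a time gave 1 to 2 members in DKO injected at 1 day against control, 1 to 3 in that group against uninjected WT and 0 to 1 in the difference of the effects, and left the other comparisons at 0 or, for age, at 3. RRBS tiles higher after injection at 1 day numbered 8 without a minimum difference and 4 to 6 without 1 mouse (3 weeks: 2 to 4). WGBS tiles lower in the adult numbered 53 at 25 points, 13 at 50 points and 21 in the genes alone, and those higher in DKO 71 and 15. No called difference changed sign. Scaling by the median ratio turned the sign of members that were not called: positive differences went from 7 to 9 of 9 in DKO injected at 1 day against control, from 8 to 9 in controls injected at 3 weeks, from 6 to 8 in DKO injected at 1 day against uninjected WT, from 7 to 8 in the difference of the effects and from 8 to 7 with age. At a minimum of 5 FPKM some members were not tested, and age could not be refitted without libraries that differ in sex-linked transcripts. In all, 102 of these counts stayed within 1.5 times the reported one and 26 did not.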
